A study of Mus musculus with 6 samples.

Results

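The replication-dependent histone genes supply the bulk of the histones that package newly made DNA. They were taken as every gene whose GENCODE M21 symbol begins with Hist1h, Hist2h, Hist3h or Hist4h, the 4 chromosomal groups of the older mouse nomenclature. The annotation names 70 such genes, and 61 of the 32493 rows of the count table belonged to them. The other 9 (Hist1h2aa, Hist1h2al, Hist1h2ba, Hist1h4b, Hist2h2aa1, Hist2h2aa2, Hist2h2bb, Hist2h3b and Hist2h3c1) were not analysed here. Of the 61 genes, 52 lie in the Hist1 group on chromosome 13, 5 in Hist2 on chromosome 3, 3 in Hist3 on chromosome 11 and 1 in Hist4 on chromosome 6. By the histone class in their symbols, 6 are linker histone H1 genes, 16 are H2A, 17 are H2B, 10 are H3 and 12 are H4 genes. Of the 61, 59 are protein-coding, while Hist1h2aj (H2A) and Hist3h2bb-ps (H2B) are pseudogenes.

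The study asked how deletion of the microRNA miR-151 changes mouse neural stem cells (NSCs). At E14.5 the tissue lining the lateral ventricles was dissected, NSCs were passaged in culture, and libraries were made from their RNA with an mRNA kit. Both genotypes carried floxed miR-151 alleles. The cko embryos also carried Emx1-IRES-Cre, a driver active in progenitors of the dorsal telencephalon. The ctrl embryos had no Cre, and the sample labels call them wt. Nothing in the labels says whether libraries came from separate embryos or cultures, so p-values measure only the spread between these libraries, which may be technical. Mir151 has no row in the table, and the deletion could not be checked from these counts.

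The column of ctrl 2 equals the rounded-up mean of ctrl 1 and ctrl 3 in each of the 32493 rows and holds no counts of its own. Comparisons were therefore made between 2 ctrl libraries (ctrl 1 and ctrl 3) and 3 cko libraries, with totals of 17883796 to 23335736 counts. Levels are given in CPM, counts relative to the library total after TMM scaling, and 3 counts correspond to 0.129 to 0.168 CPM, a floor that covers counting error only. Over all genes tested, 7.86% were called higher in cko and 8.57% lower. Of 12 NSC markers, 4 were higher and 1 was lower in cko, while 5 of 8 tested astrocyte markers were lower. The astrocyte markers had a summed level of 2008 to 3043 CPM in ctrl and 834.2 to 1535 CPM in cko. Without cko 2 or without cko 3, 1 of these 8 was called lower, in fits that called 416 of 16284 and 457 of 16306 genes lower. Of 11 oligodendrocyte lineage markers, 2 were higher and 6 lower, and of 8 tested neuron markers 2 were higher and 1 lower. The oligodendrocyte markers summed to 3221 and 3842 CPM in ctrl 1 and ctrl 3 and to 3512, 3765 and 3636 CPM in cko 1, 2 and 3. Microglia markers reached at most 10 counts in a library, with Cx3cr1 and Tmem119 at 0, and none of 3 vascular and 1 red blood cell markers tested passed the test in either direction. The part of this cell mixture in the results below was not tested, and in bulk RNA fewer cells of a type and less RNA per cell cannot be told apart.

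Replication-dependent histone mRNAs are made mainly in S phase, when chromatin is copied, and their level falls when DNA synthesis ends. Unlike other mRNAs, most end in a conserved stem-loop in place of a poly(A) tail. The stem-loop binding protein SLBP holds this structure, the U7 small nuclear ribonucleoprotein guides the cut just downstream of it, and the same structure later serves translation and decay. Some histone genes can also yield polyadenylated transcripts, which read past the stem-loop to a poly(A) signal.

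The stem-loops of 4 cluster genes are shown because they are the letters at which the usual mRNA ends, and because the count table was made from libraries of an mRNA kit. Each is read 5′ to 3′ from the GENCODE M21 transcript on GRCm38. Capitals mark the paired arms of the stem, and lower case marks the loop.
Hist3h2ba: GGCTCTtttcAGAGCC
Hist1h4i: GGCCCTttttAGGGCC
Hist1h1c: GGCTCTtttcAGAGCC
Hist2h4: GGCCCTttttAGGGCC
They lie at chr11:58949349-58949364 (plus strand), chr13:22040966-22040981 (minus strand), chr13:23739512-23739527 (plus strand) and chr3:96262939-96262954 (minus strand). The Hist3h2ba, Hist1h4i, Hist1h1c and Hist2h4 stem-loops begin 28, 30, 24 and 38 bases after the stop codon, in the 3′ untranslated part of a single exon. A search of the sense strand for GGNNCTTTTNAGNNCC, with N for any base, found the letters after the coding sequence in 44 of the 70 cluster genes. These were 44 of the 54 genes with any base annotated there, against 89 of 55450 genes (0.161%) over the whole transcript set. The form shown for Hist3h2ba was shared by 26 genes of the H1, H2A, H2B and H3 classes, and the form with the loop tttc and the outer arms GGCCCT and AGGGCC occurred in 7 genes, each of them an H4 gene. Across the 44 genes the stem-loop began 21 to 58 bases after the stop codon, with a median of 31. Hist1h2bc and Hist2h2be, which are among the more abundant genes here, had no match to these letters.

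The annotated 3′ ends differed between sources in a way that bears on a count table. In RefSeq (GRCm38.p6), matched by name and place for 70 of 70 genes, 41 of the 44 genes with a stem-loop ended 4 to 8 bases past it. In GENCODE M21, 2 of the 44 ended within 10 bases of it and 22 ran over 100 bases further. The Hist3h2ba model ran 169 bases past its stem-loop in GENCODE against 8 in RefSeq, the Hist1h4i model 330 against 6, and the Hist1h1c model 840 against 4. The sequence AATAAA, the usual poly(A) signal, stood within the last 50 bases in 13 of the 27 rows with more than 120 bases annotated after the coding sequence and in 0 of the 32 with 114 or fewer. The search covered only bases after the coding sequence. Several of the 32 had 0 to 2 such bases and could not hold the letters, so their part of the 0 was fixed beforehand. Across 21901 protein-coding genes, 65.7% had these letters in the last 50 bases. Coding bases were included there, so that share is not a like measure. These are descriptions of the annotation, and which transcript ends the reads came from was not tested.

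The levels of cluster genes were low and very unequal. In total they took 108.9 and 103.7 CPM in ctrl 1 and ctrl 3 and 168.1, 141.4 and 140.0 CPM in cko 1, cko 2 and cko 3. All 3 cko libraries lay above both ctrl libraries, and the ratio of the means was 1.41 (ctrl 106.3 ± 3.66, SD, n = 2; cko 149.8 ± 15.8, SD, n = 3). The 6 genes with the most counts, Hist1h1c, Hist3h2ba, Hist1h2bc, Hist2h2be, Hist3h2a and Hist1h4i, held 84.4% of all counts on cluster genes. At the other end, 50 of the 61 were under 1 CPM on average, 18 had at most 3 counts in every library, and Hist1h2ag, Hist1h2an and Hist1h2bl had 0 counts in all 5 libraries. For comparison, 3 of 10 listed RNAs that carry no poly(A) tail have a row (Rpph1, Rny3 and Rnu12), and these reached at most 1 count in a library. Other RNAs that usually lack a tail were counted. The 223 snRNA rows added up to 377 to 639 counts in a library and the 221 snoRNA rows to 444 to 794.

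Most counts fell on a few genes with a long annotated 3′ end. The 27 genes with a long end held 95.1% of the counts. The 6 genes with the most counts, all among these 27, held 84.4% of all counts on cluster genes. Of the 27, 16 could be tested and 17 were under 1 CPM on average. The median level over the 27 was 0.435 CPM per kb of annotated exon. The 32 genes with a short end held 4.46%, 4 could be tested, 31 were under 1 CPM on average, and their median was 0.207 CPM per kb. The 2 remaining genes are pseudogenes, of which Hist3h2bb-ps was tested. The ratio of cko to ctrl sums was 1.41 for both groups of genes (long ends 101.2 and 142.3 CPM, short ends 4.78 and 6.73 CPM). For short ends the sums were 4.98 and 4.59 CPM in ctrl and 8.34, 5.14 and 6.71 CPM in cko 1, 2 and 3. That of cko 2 was thus only a little above ctrl 1, and these sums rest on 86 to 149 counts in a library. Genes with short ends also shared more sequence with other genes: the median share of 50-base words found in no gene elsewhere was 33.6%, against 77.9% for long ends, and how reads that match several copies were counted is not given in the sources used here.

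**Figure D1:**
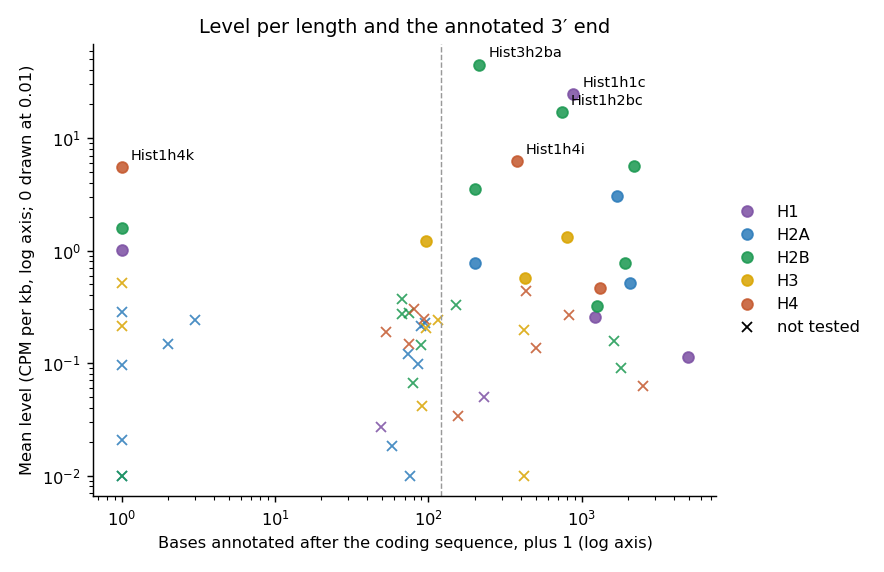
Each point is 1 of the 59 protein-coding cluster genes, with the bases annotated after its coding sequence plus 1 on the x axis and its mean level over 5 libraries in CPM per kb on the y axis (both log axes), coloured by histone class; crosses could not be tested and the dashed line marks 120 bases. Hist3h2ba stands highest at 45.1 CPM per kb, and the genes left of the line other than Hist1h4k lie below 2 CPM per kb.

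The filter on low counts kept 21 cluster genes among 16710 genes tested, and the other 40, with at most 13 counts in any library, were not tested. Hist3h2ba and Hist1h4i, 2 of the 21, were called higher in cko by edgeR (quasi-likelihood test, Benjamini-Hochberg adjusted p under 0.05). This is 9.52% of them, near the 7.86% of all genes tested that were called higher. None was called lower by edgeR, where 8.57% of all genes were, and the count stayed at 0 for an unadjusted p under 0.05 and with DESeq2. At an unadjusted p under 0.05, 5 were higher (15.9% of all genes). By the thresholds that the study used with DESeq2, applied here to edgeR (unadjusted p under 0.01 with a log2 fold change over 0.9 in size), 1 gene was higher (Hist1h4i), against 2.39% of all genes, and 0 were lower, against 4.17% (6.55% in either direction).

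Direction was more one-sided than the calls. The log2 fold change was above 0 in 17 of the 21, against 49.7% of all genes, and its median was 0.49, against 0.00 over all genes. All cko libraries lay above both ctrl libraries in 9 of the 21 (25.4% of all genes) and below them in 1, Hist2h4 (24.3%). Some of these genes passed the filter on low counts mainly through the group in which they were higher, so these counts describe the 21 and are no test of the 61. Of the 21, 15 had at least 10 counts in every library, and their median log2 fold change was 0.47.

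**Figure D2:**
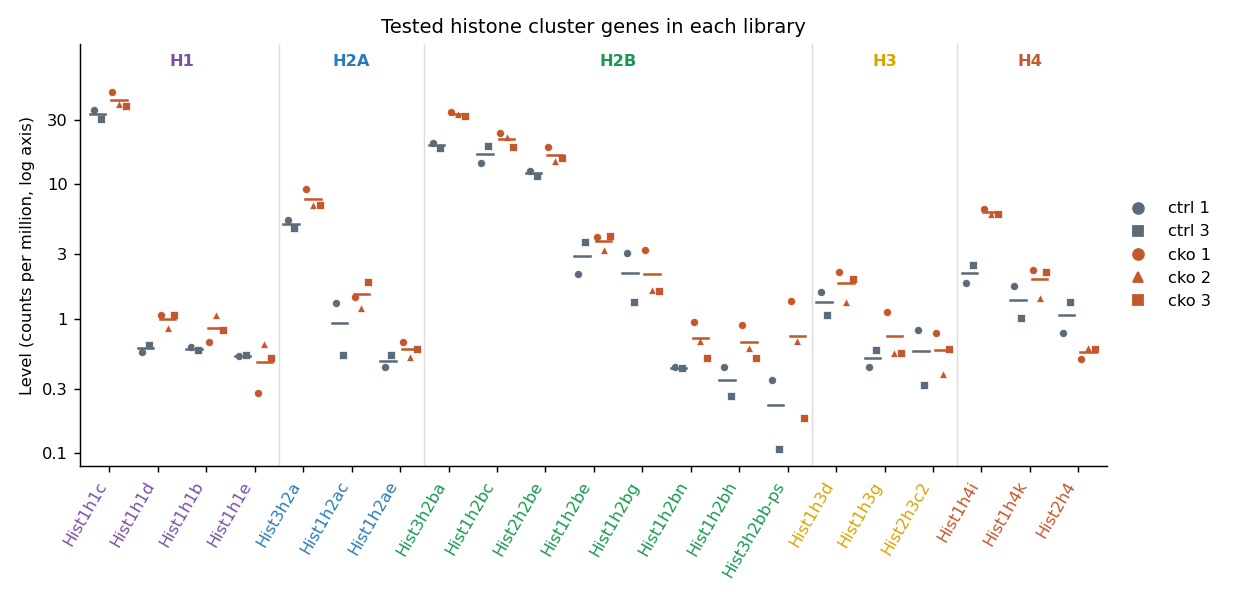
Level of each of the 21 tested cluster genes in ctrl 1, ctrl 3, cko 1, cko 2 and cko 3, in CPM on a log axis, grouped by histone class, with short lines at the group means. Hist3h2ba and Hist1h4i show the 3 cko libraries close together and well above both ctrl libraries, whereas groups overlap or nearly touch for most of the others.

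H2B genes carried 53.4% of the counts, and their sum was 54.8 and 56.1 CPM in ctrl against 88.6, 78.5 and 75.2 CPM in cko 1, 2 and 3, a ratio of 1.46. H2B pairs with H2A in the nucleosome. Hist3h2ba (ENSMUSG00000056895, chr11:58948920-58949533, plus strand, 1 exon), an H2B gene of the small Hist3 group that RefSeq names H2bu2, had the highest level per length of all cluster genes. Its levels were 20.3 and 18.5 CPM in ctrl 1 and ctrl 3 and 34.2, 33.1 and 32.1 CPM in cko 1, 2 and 3, from 347 to 773 counts. The groups were far apart relative to their spread, and the log2 fold change was 0.77 (SE 0.10, edgeR adjusted p = 0.0041). Its coding sequence matched the nearest other cluster gene, Hist1h2bl, at 90.8% of bases, and 77.9% of its 50-base words occurred nowhere else among annotated transcripts.

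Hist1h2bc, the H2B gene with the next highest level per length, measured 14.4 and 19.05 CPM in ctrl 1 and ctrl 3 and 23.9, 22.3 and 18.8 CPM in cko 1, 2 and 3. Its groups overlapped, since ctrl 3 lay above cko 3, and the log2 fold change of 0.38 (SE 0.17) did not pass (edgeR adjusted p = 0.16). Its GENCODE model is spliced, and its coding sequence was 99.5% identical to that of Hist1h2bq, so counts may have been split between copies. Hist2h2be of the Hist2 group stood at 12.5 and 11.5 CPM in ctrl and 18.8, 14.9 and 15.7 CPM in cko. Its cko libraries were all higher, but the log2 fold change of 0.45 (SE 0.15) stayed outside the threshold (edgeR adjusted p = 0.080). Every 50-base word of Hist2h2be was found in no other gene. The other 5 tested H2B genes were at 4.09 CPM or less in every library, with log2 fold changes from -0.05 (Hist1h2bg) to 1.58 (the pseudogene Hist3h2bb-ps, whose 2 to 24 counts ranged widely in both groups), and none of them passed.

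H4 genes had the largest ratio of sums. The 12 H4 genes added up to 5.55 and 5.98 CPM in ctrl and 11.3, 9.26 and 9.93 CPM in cko 1, 2 and 3, a ratio of 1.76. Most of this difference came from Hist1h4i alone, so the ratio does not describe the H4 class as a whole. H4 is the most invariant core histone, and its many gene copies encode nearly the same protein. Hist1h4i (ENSMUSG00000060639, chr13:22040636-22041362, minus strand, 1 exon) stood at 1.83 and 2.51 CPM in ctrl 1 and ctrl 3 and at 6.49, 5.96 and 6.02 CPM in cko 1, 2 and 3. The counts behind these levels were 42 and 47 in ctrl and 116, 139 and 131 in cko, with no overlap. The log2 fold change was 1.51 (SE 0.23, edgeR adjusted p = 0.0065). Its coding sequence was 96.8% identical to that of Hist1h4m, and 71.1% of its 50-base words were its own.

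Hist1h4k, the H4 gene next in level per length, measured 1.75 and 1.01 CPM in ctrl and 2.29, 1.41 and 2.21 CPM in cko. Its groups overlapped (log2 fold change 0.49, SE 0.37, edgeR adjusted p = 0.40), and 28.5% of its 50-base words were its own. Hist2h4, which has the same stem-loop letters as Hist1h4i, pointed the other way, at 0.786 and 1.33 CPM in ctrl and 0.504, 0.600 and 0.598 CPM in cko. It was the only tested gene with all cko libraries below both ctrl libraries, from 9 to 25 counts, and its log2 fold change of -0.88 (SE 0.41) did not pass (edgeR adjusted p = 0.19).

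H1 linker histones bind the DNA between nucleosomes, and their genes took 30.7% of the counts. The sum was 37.4 and 32.5 CPM in ctrl and 50.6, 41.9 and 40.5 CPM in cko 1, 2 and 3, a ratio of 1.27. Almost all of it came from Hist1h1c (ENSMUSG00000036181, chr13:23738808-23740367, plus strand), which encodes H1.2. Hist1h1c had 35.6 and 30.7 CPM in ctrl 1 and ctrl 3 and 48.5, 39.3 and 38.1 CPM in cko 1, 2 and 3. The cko libraries were higher, with cko 3 only a little above ctrl 1, and the log2 fold change of 0.34 (SE 0.13) did not pass (edgeR adjusted p = 0.12).

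The other linker histone genes were close to the detection floor. Hist1h1d (H1.3) had 0.568 and 0.640 CPM in ctrl and 1.06, 0.857 and 1.06 CPM in cko, a log2 fold change of 0.71 (SE 0.37, edgeR adjusted p = 0.23) from 12 to 23 counts. Hist1h1b (H1.5) had 0.612 and 0.587 CPM in ctrl and 0.671, 1.07 and 0.827 CPM in cko (log2 fold change 0.52, SE 0.41, edgeR adjusted p = 0.41). Groups did not overlap for these 2 genes, but the distances were of the order of a few counts. Hist1h1e (H1.4) had 0.524 and 0.534 CPM in ctrl and 0.280, 0.643 and 0.506 CPM in cko, where cko 1 was lowest and cko 2 highest (log2 fold change -0.12, SE 0.50, edgeR adjusted p = 0.89). Hist1h1a and the testis gene Hist1h1t were not tested.

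H2A genes added up to 7.69 and 6.62 CPM in ctrl and 11.97, 9.09 and 10.4 CPM in cko 1, 2 and 3, a ratio of 1.47. Each of the 16 H2A genes overlaps another annotated gene, and since the use of strand in counting is not given in the sources used here, their reads are uncertain. The same holds for Hist1h1e and Hist1h2be of the H1 and H2B classes, which both overlap Gm11398. They also overlap each other on the minus strand, where the use of strand would not separate their reads. Hist3h2a, the neighbour of Hist3h2ba on chromosome 11, stood at 5.37 and 4.70 CPM in ctrl and 9.12, 6.94 and 6.99 CPM in cko. Its cko libraries were all higher (log2 fold change 0.60, SE 0.20, edgeR adjusted p = 0.084), and its annotated end overlaps Trim17 on the same strand. Hist1h2ae, the H2A gene next in level per length, had 0.437 and 0.534 CPM in ctrl and 0.671, 0.514 and 0.598 CPM in cko, with overlapping groups (log2 fold change 0.29, SE 0.43, edgeR adjusted p = 0.69). Of the 16 genes, 9 had at most 3 counts in every library.

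H3 genes were the least represented class, with 2.72% of the counts. They added up to 3.36 and 2.51 CPM in ctrl and 5.71, 2.66 and 3.998 CPM in cko 1, 2 and 3, so the sum in cko 2 lay between the ctrl libraries. Hist1h3d had 1.57 and 1.07 CPM in ctrl and 2.24, 1.33 and 1.98 CPM in cko (log2 fold change 0.47, SE 0.36, edgeR adjusted p = 0.41). Hist1h3g had 0.437 and 0.587 CPM in ctrl and 1.12, 0.557 and 0.552 CPM in cko, where cko 1 alone stood apart (log2 fold change 0.52, SE 0.51, edgeR adjusted p = 0.52). Hist2h3c2 showed a log2 fold change of -0.02 (SE 0.55, edgeR adjusted p = 0.99). All 3 share over 98% of coding bases with another H3 gene. Hist1h3g and Hist2h3c2 also had under 50% of their 50-base words to themselves, so their reads cannot be assigned with certainty. Hist1h3d had 75.2%, so its reads are less uncertain, though those from shared words remain so.

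**Figure D3:**
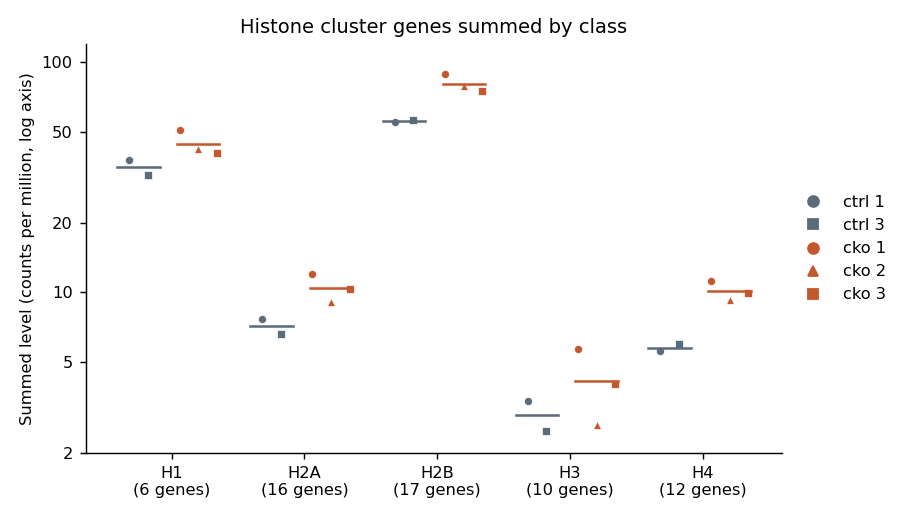
Summed level of the cluster genes of each histone class in each of the 5 libraries, in CPM on a log axis, with short lines at the group means. The cko libraries lie above both ctrl libraries for H1, H2A, H2B and H4, where most of the H4 difference is that of Hist1h4i. The H3 sum of cko 2, 2.66 CPM, falls between those of ctrl 3 and ctrl 1.

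Sums over a class do not depend on how reads were divided among genes of that class that have a row. They do depend on whether reads that match several copies were counted, which is not given in the sources used here. They also leave out the 9 cluster genes without a row. Without Hist3h2ba and Hist1h4i the sum over the remaining 59 genes was 86.7 and 82.7 CPM in ctrl and 127.3, 102.3 and 101.8 CPM in cko, a ratio of 1.30 against 1.41 with them. By chromosomal group the ratio was 1.33 for Hist1, 1.30 for Hist2 and 1.69 for Hist3, whose sum rests on Hist3h2ba, Hist3h2a and Hist3h2bb-ps. The single Hist4 gene, Hist4h4, had 0 to 7 counts.

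Promoters of the cluster genes share short motifs with known roles in histone transcription. The octamer ATTTGCAT, which binds POU-domain factors such as OCT1, is the element best known from H2B genes, and H2A and H2B genes often share 1 promoter region in opposite directions. RefSeq promoters of 300 bases (250 before to 50 after the start, GRCm38.p6) were at hand for 62 cluster genes, 63 promoters in all. On both strands, the octamer letters stood in 7 of 18 H2A and 7 of 17 H2B promoters, in 0 of 6 H1, 0 of 10 H3 and 0 of 12 H4 promoters, and in 1.74% of all 32851 promoters. TATAAA stood in 35 of the 63 (13.6% of all promoters) and CCAAT in 54 (37.4% of all), with only 3 of 12 H4 promoters among the latter. The windows of 2 tested H2B genes are shown with the octamer in capitals.
Hist1h2bg: ttgagtcccttATTTGCATagaacctctat
Hist1h2be: agtaagacttaATTTGCATaagactgccta
They lie at chr13:23571330-23571359 (plus strand) and chr13:23586019-23586048 (minus strand), and the octamer begins 59 and 67 bases before the start given with the promoter. For Hist1h2be that start lies inside the gene model, whose 5′ end is at chr13:23621124. Neither gene passed the test (log2 fold change -0.05 with SE 0.46 for Hist1h2bg and 0.38 with SE 0.29 for Hist1h2be). The promoters of the 2 called genes, Hist3h2ba and Hist1h4i, held TATAAA but not the octamer letters, and that of Hist3h2ba also held CCAAT. These letters describe the sequences and do not show that a factor binds there.

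Histone genes outside the clusters mostly make variants whose mRNAs are not tied to S phase and end in a poly(A) tail. Of these 11 genes, 10 were higher in cko and none lower at an adjusted p under 0.05 in edgeR (7.86% of all genes were higher), with a median log2 fold change of 0.60 over the 11. The exception was H2afj, at -0.05 (SE 0.12). H2afz, which replaces H2A at promoters, had 156.5 and 195.2 CPM in ctrl and 281.3, 342.4 and 317.0 CPM in cko (log2 fold change 0.84, SE 0.12, edgeR adjusted p = 0.0063). H2afx, whose product is phosphorylated at DNA breaks, had 60.5 and 67.2 CPM in ctrl and 109.2, 130.9 and 123.0 CPM in cko (log2 fold change 0.92, SE 0.10, edgeR adjusted p = 0.0025). It was also the 1 gene of the 11 that held the stem-loop letters.

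H1f0, a linker variant linked to differentiated cells, was higher by a log2 fold change of 0.69 (SE 0.09, edgeR adjusted p = 0.0046), and H3f3a and H3f3b, which encode the replacement histone H3.3, by 0.52 (SE 0.07, edgeR adjusted p = 0.0055) and 0.33 (SE 0.07, edgeR adjusted p = 0.021). All 3 cko libraries lay above both ctrl libraries for each of these genes. The sum over the 11 genes was 1605 and 1674 CPM in ctrl and 2317, 2474 and 2433 CPM in cko. The number called among the 11 fell to 6 without cko 2 and to 7 without cko 3, where the share of all genes called higher fell to 1.95% and 2.06%. The difference between these genes and the cluster genes was not tested.

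**Figure D4:**
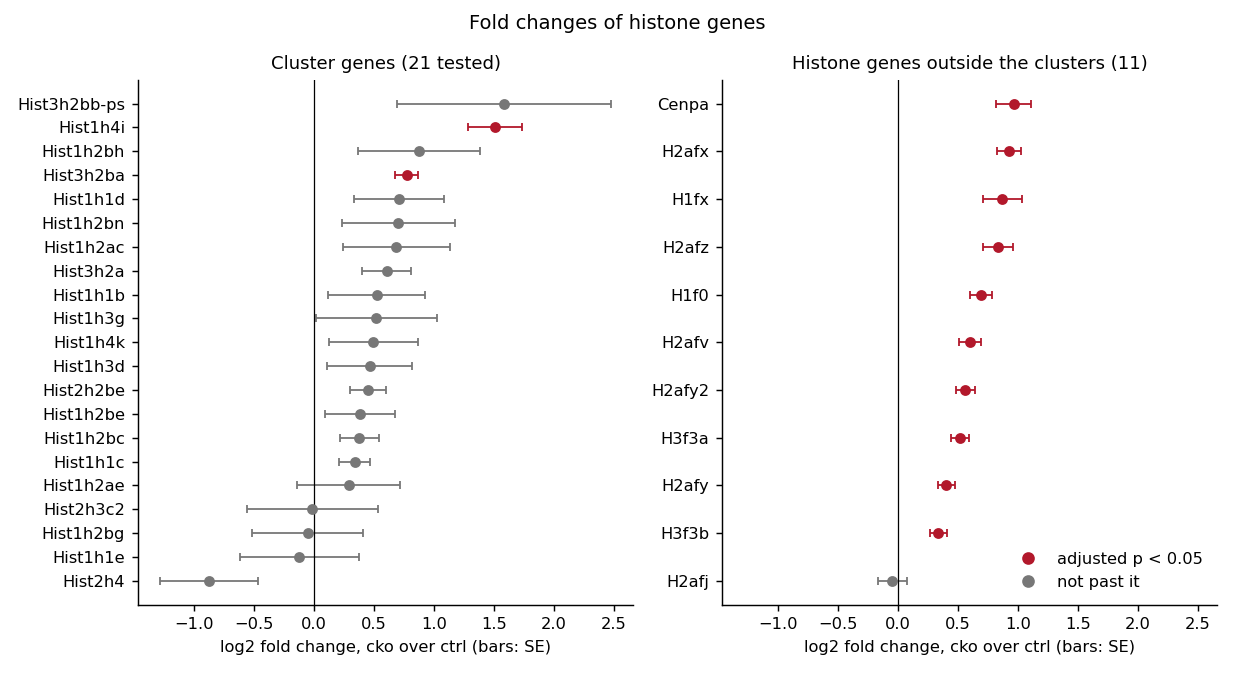
Log2 fold change of cko over ctrl with its SE for the 21 tested cluster genes (left) and the 11 histone genes outside the clusters (right), red where the adjusted p was under 0.05 in edgeR. The estimates of most cluster genes lie on the same side of 0 as those on the right but with wider bars, and 2 of 21 against 10 of 11 passed.

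Among genes that drive, process or degrade histone transcripts, the shares called higher in the fit of all 5 libraries were near that of all genes tested (7.86%). Of 11 genes of histone transcription, 1 was higher (9.09%) and none lower, with a median log2 fold change of 0.13. Npat, the CDK2 substrate that switches on histone genes, had 65.7 and 60.9 CPM in ctrl and 62.5, 61.2 and 64.9 CPM in cko, a log2 fold change of -0.01 (SE 0.08, edgeR adjusted p = 0.95). The gene that passed, Casp8ap2 (FLASH), a partner of NPAT and of the U7 complex, had a log2 fold change of 0.39 (SE 0.09, edgeR adjusted p = 0.029). That call was lost without ctrl 3, cko 1, cko 2 or cko 3 (edgeR adjusted p up to 0.11).

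Of 17 genes of histone mRNA processing and translation, 2 were higher (11.8%) and 1 lower, with a median of 0.14. That median was 0.086 without ctrl 1 and 0.23 without ctrl 3. Slbp had 25.8 and 29.1 CPM in ctrl and 34.2, 39.5 and 42.9 CPM in cko, a log2 fold change of 0.50 (SE 0.12, edgeR adjusted p = 0.033), and the call was lost without ctrl 1, cko 2 or cko 3 (edgeR adjusted p up to 0.14). Fip1l1, a subunit of the cleavage and polyadenylation factor, had a log2 fold change of 0.33 (SE 0.08, edgeR adjusted p = 0.031), lost without ctrl 1 or any of the cko libraries. Mif4gd, whose product bridges SLBP and translation initiation, was the gene that fell: 29.8 and 33.2 CPM in ctrl and 15.8, 16.5 and 16.3 CPM in cko, a log2 fold change of -0.96 (SE 0.10, edgeR adjusted p = 0.0024). The U7-specific Sm-like genes Lsm10 and Lsm11 had log2 fold changes of 0.20 (SE 0.12, edgeR adjusted p = 0.30) and -0.30 (SE 0.19, edgeR adjusted p = 0.32). Among 8 genes of histone mRNA decay, Eri1, the exonuclease that trims the stem-loop, was the 1 that passed (12.5% of the 8, log2 fold change 0.32, SE 0.08, edgeR adjusted p = 0.030), a call lost without ctrl 1 or any of the cko libraries.

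Histone chaperones carry new histones to DNA. Of 25, 11 were higher (44.0%, against 7.86% of all genes) and 1 was lower, with a median log2 fold change of 0.33. Asf1b, Chaf1b and Chaf1a, which deposit H3 and H4 behind the replication fork, rose by log2 fold changes of 1.41 (SE 0.29, edgeR adjusted p = 0.018), 1.21 (SE 0.23, edgeR adjusted p = 0.015) and 0.94 (SE 0.23, edgeR adjusted p = 0.031). Nasp, which buffers free H3 and H4, rose by 0.62 (SE 0.12, edgeR adjusted p = 0.016) and Anp32e, which removes H2A.Z, by 0.51 (SE 0.09, edgeR adjusted p = 0.012), while the importin gene Ipo4 fell by 0.52 on the log2 scale (SE 0.09, edgeR adjusted p = 0.011). Without cko 2 or without cko 3, none of the 25 was called in edgeR in either direction, in fits that called 1.95% and 2.06% of all genes higher, and Chaf1a also lost its call without ctrl 1.

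DNA replication genes are the usual partners of the cluster genes in S phase. Of 33, 22 were higher (66.7%, against 7.86% of all genes) and none lower, with a median log2 fold change of 0.78. Pcna, the sliding clamp of DNA polymerase, had 92.1 and 111.8 CPM in ctrl and 161.9, 207.8 and 199.9 CPM in cko (log2 fold change 0.90, SE 0.13, edgeR adjusted p = 0.0064). Pola1, the catalytic subunit of DNA polymerase alpha, had 21.9 and 21.3 CPM in ctrl and 36.1, 45.1 and 39.8 CPM in cko (log2 fold change 0.90, SE 0.12, edgeR adjusted p = 0.0042). Rrm1, a ribonucleotide reductase subunit, had a log2 fold change of 0.97 (SE 0.14, edgeR adjusted p = 0.0053). The number called among the 33 fell to 7 (21.2%) without cko 2 and to 7 without cko 3, where 1.95% and 2.06% of all genes were called higher, and Pcna, Pola1 and Rrm1 passed in each of the fits that left out 1 library.

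**Figure D5:**
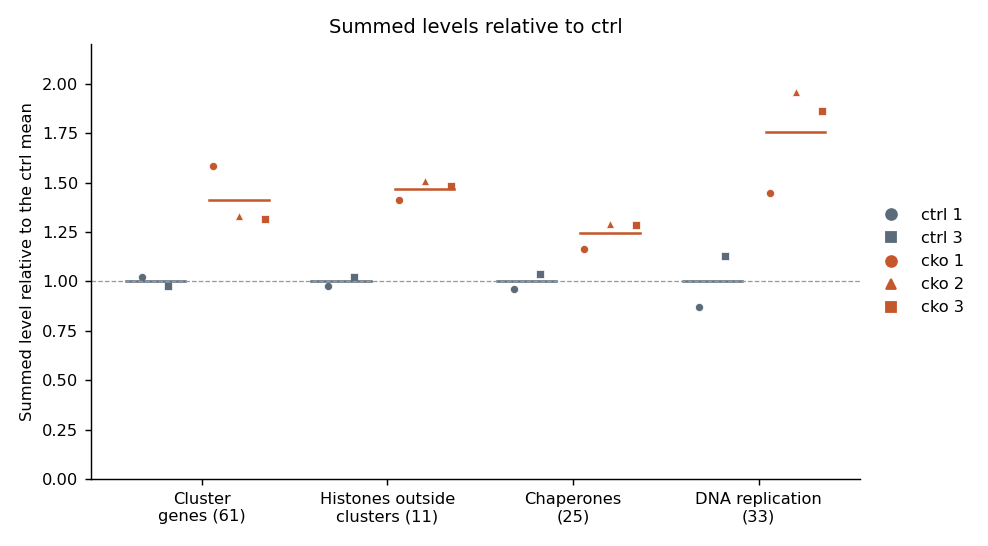
Summed level of each gene group in each library divided by the mean of ctrl 1 and ctrl 3, on a linear axis from 0, with short lines at the group means. The cko 1 library is the highest of the 3 cko libraries for the cluster genes, at 1.58 times the ctrl mean, and the lowest for DNA replication genes, at 1.45 times.

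The order of the cko libraries differed between these groups. Among the cko libraries, cko 1 was the highest in 16 of the 21 tested cluster genes, where it was the highest in 36.3% of all genes tested. It was the lowest in each of the 33 DNA replication genes and in 8 of the 11 histone genes outside the clusters, against 39.4% of all genes tested. Relative to the ctrl mean, the sum of the cluster genes was 1.58 in cko 1, 1.33 in cko 2 and 1.32 in cko 3, whereas that of the DNA replication genes was 1.45, 1.96 and 1.86. Without cko 1 the ratio of cluster gene sums was 1.32, and the 2 called genes, Hist3h2ba and Hist1h4i, passed in each of the 11 other fits.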

How the data were processed

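RNA-seq counts per gene were analysed for 2 ctrl and 3 cko NSC libraries. Per the study's methods, reads were filtered (NGSQC) and aligned by HISAT2 to the mm10 assembly. The authors deposited whole-number counts per gene, whose totals differ between libraries, and the values show no normalization. The submitters' processing notes name GRCm39. The counting tool, annotation and use of strand are not given in the sources used here. The ctrl 2 column holds another kind of value, a rounded-up mean that the authors deposited beside the counts, and was left out. Groups came from the sample labels.

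Gene names, positions and transcripts came from GENCODE M21 (GRCm38), which matched 31829 of 32493 Ensembl identifiers (664 did not match), and promoters from RefSeq (GRCm38.p6). In R 4.3.3, edgeR 4.0.16 kept 16710 genes by its filter on low counts, scaled them by TMM and tested cko against ctrl by the quasi-likelihood test, with Benjamini-Hochberg adjustment over all genes tested and calls at an adjusted p under 0.05. DESeq2 1.42.0 was an alternative, with other size factors, other filters, each library left out, the replicate number as a block and all 6 columns. The steps were tested on simulated data.

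Values per library were given for called genes, the 2 genes of each class with the highest level per length and the tested H1 genes. Named from the related lists, some with fold changes only, were 15 genes chosen by name and the 2 genes of each list with the smallest p in each direction among those called, while marker lists are given by counts. Hist2h2be, Hist2h4, Hist2h3c2 and H2afj were named after their values were seen. The cluster genes, the lists and the 120-base limit were chosen with earlier results of these data known.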

Additional observations from a re-analysis of the deposited data

How the results depend on the processing

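Hist3h2ba and Hist1h4i were called higher in each of the 11 alternatives, with log2 fold changes of 0.71 to 0.83 and 1.28 to 1.75 and adjusted p up to 0.034 and 0.043 in edgeR. Leaving out 1 cko library gave 2 cluster genes called higher and 0 lower each time. Over all genes, 5.18%, 1.95% and 2.06% were called higher without cko 1, cko 2 and cko 3. Leaving out 1 library of either group gave a median log2 fold change of 0.33 to 0.66 and a ratio of sums of 1.32 to 1.46. Without a filter on low counts 3 were higher (adding Hist1h1c, edgeR adjusted p = 0.044), where 6.02% of all genes were. With all 6 columns, the averaged column narrows the spread in ctrl by construction. In that fit 5 were higher (adding Hist3h2a, Hist2h2be and Hist1h1c), where 17.6% of all genes were called higher. Of the cluster genes 1 was lower (Hist2h4, edgeR adjusted p = 0.048), and 5 genes of the 6 related lists were lower, where 2794 of all 16322 genes were.

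In the related lists together, 47 genes were higher and 2 lower, where 7.86% of all genes tested were called higher and 8.57% lower. Leaving out 1 library gave 13 to 60 higher and 1 to 6 lower, with the smallest counts, 13 and 14 higher and 1 lower, without cko 2 and without cko 3, and with 6 lower without ctrl 1. The cause was not tested.

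Near 0, signs changed. Leaving out 1 library moved the log2 fold change of Hist2h3c2 between -0.51 (without ctrl 3) and 0.84 (without ctrl 1), that of Hist1h2bg between -0.52 (without ctrl 3) and 0.66 (without ctrl 1), and that of Hist1h1e between -0.41 (without cko 2) and 0.11 (without cko 1). DESeq2 put Hist2h3c2 at 0.00406.

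Replicate numbers are shared by the labels, and the study describes the sequenced NSCs as coming from cko and ctrl littermates. Which cko and ctrl embryos had a mother in common is not given, so the numbers were not taken as pairs. Deviations of same-numbered libraries correlated at 0.14 (ctrl 1 and cko 1) and 0.05 (ctrl 3 and cko 3). With 2 ctrl libraries, the deviations of ctrl 3 are those of ctrl 1 with the sign reversed (ctrl 3 and cko 1, -0.14). These correlations therefore cannot decide whether the libraries were paired. With the replicate number as a block, 2 cluster genes were higher and 0 lower, the median log2 fold change was 0.66, and the values of Hist2h3c2 (0.33) and Hist1h2bg (0.17) changed sign. Genes under the floor of 3 counts cannot be read at this depth.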

Other observations

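The cko 1 library, in which most tested cluster genes were highest among the cko libraries, also had the smallest total (17883796 counts) and the highest summed level of mitochondrial genes (30280 CPM, against 25150 and 24470 CPM in cko 2 and cko 3 and 27920 and 24510 CPM in ctrl 1 and ctrl 3). Whether these values have a part in the order of the cko libraries was not tested.

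Small RNA genes whose products usually lack a poly(A) tail were present at low levels in all libraries. The 223 snRNA rows added up to 27.9 and 23.4 CPM in ctrl and 21.1, 21.6 and 23.7 CPM in cko 1, 2 and 3, and the 221 snoRNA rows to 34.7 and 30.04 CPM in ctrl and 24.8, 27.5 and 26.2 CPM in cko. Their ratios of cko to ctrl, 0.862 and 0.809, lay on the other side of 1 from the 1.41 of the cluster genes, and the snoRNA sums of the cko libraries lay below both ctrl libraries.

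Several cluster genes are exact or almost exact copies. The coding sequences of Hist1h2bq and Hist1h2br were identical (100%), and 2.68% of the 50-base words of Hist1h2bq were found in no other gene. In all, 27 of the 61 genes had under 50% of such words to themselves, 4 of them among those tested (Hist1h4k, Hist1h3g, Hist1h2bn and Hist2h3c2), and how such reads were assigned was not tested.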
